A study of Mus musculus with 11 samples.

Results

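Endothelial cells read the drag of flowing blood and set whether that blood clots, and 8 genes of this function were followed in isolated mouse glomeruli. They are Klf2, Klf4, Nos3, Thbd, Procr, Tfpi, Vwf and Plat, chosen by name with earlier results of these data known. All 8 were measured among 13734 genes. The 11 RNA-seq libraries fall into 3 groups. Diabetic db/db mice, which carry 2 mutant copies of the leptin receptor gene, received puerarin, an isoflavone glycoside of kudzu root, at 20 mg per kg body weight per day (n = 3). Other db/db mice received the 5% DMSO vehicle alone (n = 4). Heterozygous db/m littermates on the same vehicle were the non-diabetic controls (n = 4). All mice were labelled male, were bought at 8 weeks of age, were gavaged from 10 weeks of age for 6 weeks, and received DMSO, so no group was free of it. The treatment protocol names the BKS background, whereas the strain field names C57BL/6J. Whether each library stands for 1 animal or for pooled animals is not stated in the labels, and the spread behind the p-values may therefore be partly technical.

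Laminar shear on the vessel wall is known to act through a kinase cascade onto MEF2 factors, which switch on the transcription factors Klf2 and Klf4. These in turn raise Nos3, whose product makes the vasodilator nitric oxide, and Thbd, whose product thrombomodulin turns thrombin from a clotting enzyme into an activator of protein C. The other genes complete the surface balance: Procr presents protein C, Tfpi blocks the start of clotting by tissue factor, von Willebrand factor tethers platelets, and tissue plasminogen activator, encoded by Plat, starts the dissolving of fibrin.

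Library titles came in 2 forms, a group tag with a number (6 libraries) or an S number (5 libraries), and both forms occur in every group. What the form stands for is not given in the labels, so it was kept as a term in each fit and values within each form are shown. Total counts were 35369703 to 44244460 per library. Although all mice were labelled male, the female-specific noncoding RNA Xist reached 528 and 819 CPM (read counts put on a common library size by TMM) in puerarin 2 and puerarin 3, and only 0.519 to 6.47 CPM elsewhere. The Y-linked Ddx3y stood at 3.06 and 0.909 CPM in the same pair, against 50.3 to 85.2 CPM elsewhere. This check was chosen with the values in view. Without the pair puerarin is a single library, S144, and most puerarin fold changes are also given on that basis. S144 is also the only S-number puerarin library, so within puerarin the title form and the Xist level cannot be told apart. Of the tissue's own markers, the endothelial Pecam1 ran from 1020 to 1850 CPM and Cdh5 from 159 to 315 CPM, and the podocyte gene Nphs1 from 1180 to 1570 CPM, so the defining genes of glomerular cells were present. In bulk RNA, fewer endothelial cells and less RNA per endothelial cell cannot be told apart.

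Promoter sequences from RefSeq (GRCm38.p6) were held for 4 of the 8 genes. The 250 bases before the start site are shown for Klf2, the entry point of the flow response, and for Procr, whose puerarin and vehicle values did not overlap. They are also shown for 2 start sites of Tfpi, whose transcripts were counted apart. Capitals mark matches to CACCC (the KLF box), the MEF2 box (CTA, any 4 bases, then TAG), TGACG (the CRE core) and TATAAA (the TATA box), on either strand. Klf2 lies on the plus strand, chr8:72318812-72319061.
Klf2: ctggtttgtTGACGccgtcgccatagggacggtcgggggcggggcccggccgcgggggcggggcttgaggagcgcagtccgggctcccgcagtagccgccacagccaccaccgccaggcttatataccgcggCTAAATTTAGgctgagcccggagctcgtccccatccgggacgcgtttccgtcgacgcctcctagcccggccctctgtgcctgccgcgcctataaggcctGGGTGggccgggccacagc
Procr lies on the plus strand, chr2:155750967-155751216.
Procr: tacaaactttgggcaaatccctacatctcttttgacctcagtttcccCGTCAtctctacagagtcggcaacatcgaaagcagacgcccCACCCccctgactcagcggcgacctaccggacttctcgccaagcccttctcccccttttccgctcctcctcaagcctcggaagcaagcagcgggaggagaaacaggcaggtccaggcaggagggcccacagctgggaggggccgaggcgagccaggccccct
Tfpi lies on the minus strand, with the start site of the longer transcripts after chr2:84476760-84477009 and that of the shorter transcript after chr2:84474175-84474424, 2585 bases downstream.
Tfpi, longer transcripts: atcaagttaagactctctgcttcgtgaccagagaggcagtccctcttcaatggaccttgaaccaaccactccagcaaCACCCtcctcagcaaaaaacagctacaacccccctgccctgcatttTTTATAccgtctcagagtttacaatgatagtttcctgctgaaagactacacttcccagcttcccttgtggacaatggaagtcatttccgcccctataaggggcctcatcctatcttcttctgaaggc
Tfpi, shorter transcript: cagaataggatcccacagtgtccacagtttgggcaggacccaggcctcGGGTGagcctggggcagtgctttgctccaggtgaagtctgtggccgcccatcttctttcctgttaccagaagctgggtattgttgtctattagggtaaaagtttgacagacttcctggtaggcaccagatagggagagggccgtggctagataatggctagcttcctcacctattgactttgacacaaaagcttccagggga
The Klf2 promoter held a MEF2 box, CTAAATTTAG, 118 bases before the start site, a motif present in 3.69% of 32851 mouse promoters of 300 bases. KLF boxes were present in 57.5% of those promoters, CRE cores in 20.8% and TATA boxes in 13.6%. A match is a run of letters, and binding was not measured here. The fourth held promoter, of Klf4, had a CRE core and none of the other motifs in its window.

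The 8 genes differed widely in abundance once length was taken into account. As CPM per kilobase of transcript (a level per length), Plat averaged 951 over the 11 libraries, rank 13 of 13734 genes, so tissue plasminogen activator was among the most abundant messages of these glomeruli. Klf2 followed at 82.1 (rank 570), Thbd at 39.6, Klf4 at 24.8, Nos3 at 10.2, Tfpi at 6.95 and Procr at 3.0. Vwf was lowest at 0.961 per kilobase (rank 12496). The library ranges of Klf2 and Thbd, of Thbd and Klf4, and of Nos3 and Tfpi overlapped (47.6 to 117 against 29.6 to 57.7 for the first pair). Within every single library, however, the first gene of each of these pairs was above the second. The ranges of Plat and Klf2, Klf4 and Nos3, Tfpi and Procr, and Procr and Vwf did not overlap.

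**Figure D1:**
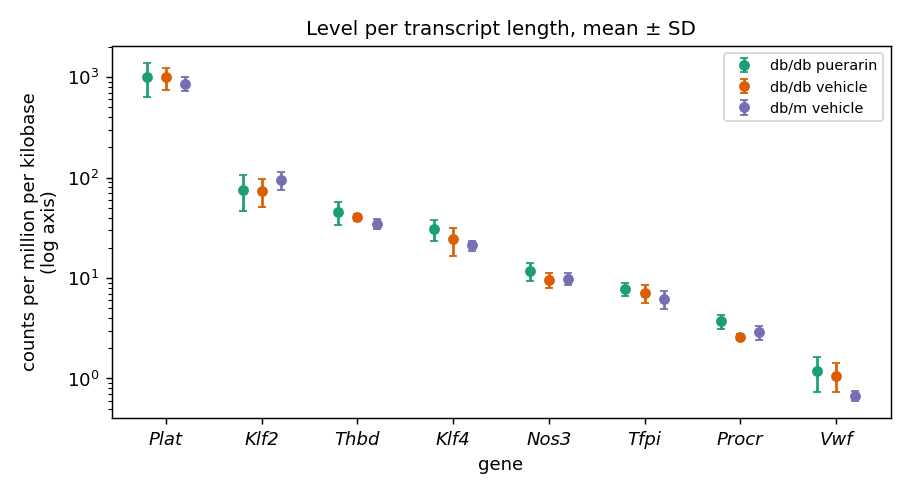
Level per transcript length for each gene on a log axis, in CPM per kilobase. Points are group means and bars are SD (puerarin n = 3, db/db vehicle n = 4, db/m vehicle n = 4). Plat lies far above the other 7 genes and Vwf lies lowest in every group.

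No gene of the set changed past the test in any of the 3 group comparisons. With edgeR's quasi-likelihood test and Benjamini-Hochberg adjustment over all 13734 genes, 0 of 8 passed an adjusted p of 0.05 for db/db vehicle over db/m vehicle, where 0.0437% of all genes passed. For puerarin over db/db vehicle 0 of 8 passed, against 0% of all genes, and for puerarin over db/m vehicle 0 of 8 passed, against 0.182%. DESeq2 and limma-trend also called 0 of 8 in each. At an unadjusted edgeR p under 0.05 there was 1 gene (Vwf) in the first comparison, where 10.3% of all genes reached it. There was 1 (Procr) in the second, against 4.21%, and there were 5 (Klf4, Thbd, Procr, Vwf and Tfpi) in the third, against 10.3%. The comparisons share libraries, so they are not separate evidence. Median log2 fold changes over the 8 genes were 0.16, 0.17 and 0.37 in that order, beside 0.02, -0.02 and -0.01 over all genes. Without puerarin 2 and 3 the medians were 0.47 for puerarin over db/db vehicle and 0.52 for puerarin over db/m vehicle. Both rest on puerarin S144 alone. With S144 left out instead, puerarin over db/db vehicle was -0.11 for Klf2, -0.02 for Thbd and -0.16 for Plat. It was 0.13 for Nos3, 0.22 for Vwf and 0.49 for Procr. Klf4 and Tfpi were at or above 0.26 and 0.06 in every setting tried.

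**Figure D2:**
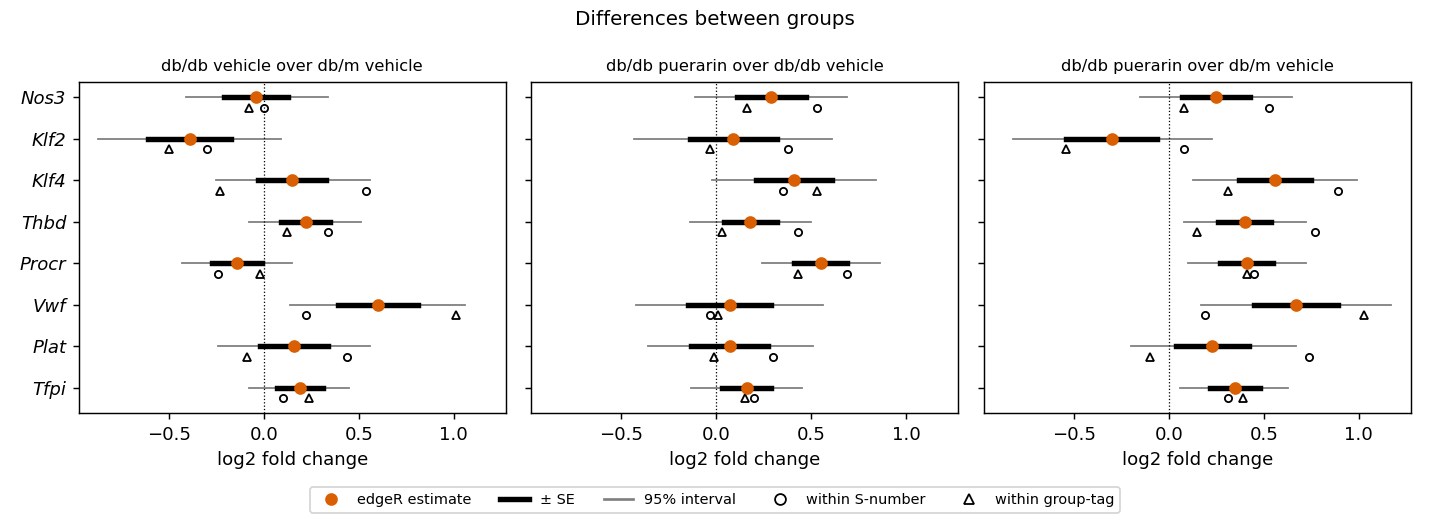
Log2 fold changes from edgeR for the 8 genes, one panel per comparison. Filled points are estimates, thick bars ± SE, thin bars 95% intervals, and open symbols the differences of mean log2 CPM within each title form. In puerarin over db/db vehicle the interval lies above 0 for Procr alone (0.24 to 0.86), before adjustment over all genes.

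The flow-responsive transcription factors came first. Klf2 (chromosome 8, 72319062 to 72321654, plus strand) had 196, 91.8 and 125 CPM in puerarin libraries S144, 2 and 3. It had 187, 122, 139 and 86.5 CPM in db/db vehicle libraries S152, S153, 1 and 3, and 164, 212, 129 and 188 CPM in db/m vehicle libraries S184, S185, 2 and 3. The means were 138 ± 53.5, 134 ± 41.6 and 173 ± 35.6 CPM in puerarin, db/db vehicle and db/m vehicle libraries (SD, n = 3, 4 and 4). The groups overlapped throughout, and the SD of the puerarin libraries exceeded every gap between group means. The db/db vehicle over db/m vehicle log2 fold change was -0.39 (SE 0.22, 95% interval -0.87 to 0.09, edgeR adjusted p = 0.592), with -0.50 within group-tag and -0.30 within S-number libraries. Puerarin over db/db vehicle gave 0.09 (SE 0.23, edgeR adjusted p = 0.985), which was -0.11 without puerarin S144 and 0.41 without puerarin 2 and 3. Puerarin over db/m vehicle gave -0.30 (SE 0.24, edgeR adjusted p = 0.776), which was 0.03 without puerarin 2 and 3.

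Klf4, the partner factor of Klf2 (chromosome 4, 55527137 to 55532475, minus strand), had 114, 95 and 70.5 CPM in puerarin S144, 2 and 3. Vehicle-treated db/db libraries S152, S153, 1 and 3 had 104, 76.8, 55.8 and 57.2 CPM, and db/m vehicle libraries S184, S185, 2 and 3 had 53.6, 70.6, 67.5 and 64.9 CPM. Puerarin libraries sat at the upper end, but puerarin 3 lay within the range of both vehicle groups, just under db/m vehicle S185. The log2 fold change of puerarin over db/m vehicle was 0.56 (SE 0.19, 95% interval 0.13 to 0.99, edgeR adjusted p = 0.326), and that over db/db vehicle was 0.41 (SE 0.20, edgeR adjusted p = 0.967). Leaving out puerarin 2 and 3 gave 0.69 and 0.53. The db/db vehicle over db/m vehicle difference ran in opposite directions in the title forms, at -0.23 in group-tag and 0.54 in S-number libraries. The test of that discrepancy gave -0.77 on the log2 scale (SE 0.29, unadjusted p = 0.0274, edgeR adjusted p = 1), in a comparison where 0.0218% of all genes and 0 of these 8 passed. Klf4 is also known as a fast-responding gene in many cells, and the immediate early list (Fos, Jun, Egr1 and others, 16 measured) stood highest in db/db vehicle S152 (level 1.03 on the log2 scale about the mean of all libraries). Its part in the Klf4 values was not tested beyond a fit with that level as a covariate. There puerarin over db/m vehicle gave 0.53 (edgeR adjusted p = 0.462) and puerarin over db/db vehicle gave 0.43. For db/db vehicle over db/m vehicle that fit gave 0.10, against 0.15 without the covariate.

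Nos3, the endothelial nitric oxide synthase (chromosome 5, 24364819 to 24384474, plus strand), had 56.6, 37.5 and 50.1 CPM in puerarin S144, 2 and 3. It had 37.3, 41.4, 48.1 and 31.3 CPM in db/db vehicle S152, S153, 1 and 3, and 35.5, 43.5, 36.1 and 46.9 CPM in db/m vehicle S184, S185, 2 and 3. Puerarin S144 and 3 were above every vehicle library, whereas puerarin 2 sat among them, so the groups overlapped. The log2 fold change of db/db vehicle over db/m vehicle was -0.04 (SE 0.17), with a 95% interval of -0.41 to 0.34 (edgeR adjusted p = 0.963). Puerarin over db/db vehicle gave 0.29 (SE 0.18, 95% interval -0.11 to 0.69, edgeR adjusted p = 0.967), which was 0.13 without puerarin S144 and 0.56 without puerarin 2 and 3.

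Of the nitric oxide and cyclic GMP genes beside Nos3, 28 of 31 were measured and 0 passed in any group comparison with edgeR. Their median log2 fold changes were 0.04 for db/db vehicle over db/m vehicle and -0.01 for puerarin over db/db vehicle. The smallest p for puerarin over db/m vehicle belonged to Hsp90aa1, the chaperone that binds the synthase, at 0.32 (SE 0.13, edgeR adjusted p = 0.44), followed by the arginine transporter gene Slc7a1 at 0.33 (SE 0.15, edgeR adjusted p = 0.511). Hsp90aa1 was at 0.61 and Slc7a1 at 0.06 without puerarin 2 and 3. Of 29 genes of shear sensing, from the ion channel Piezo1 to the MEF2 factors, 0 passed. Db/db vehicle over db/m vehicle was led by the integrin gene Itgb3 at 0.55, with Piezo1 next at -0.14 (SE 0.07, edgeR adjusted p = 0.572). Mef2d differed by 0.21 (SE 0.11, edgeR adjusted p = 0.967) between puerarin and db/db vehicle, or 0.25 without puerarin 2 and 3.

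**Figure D3:**
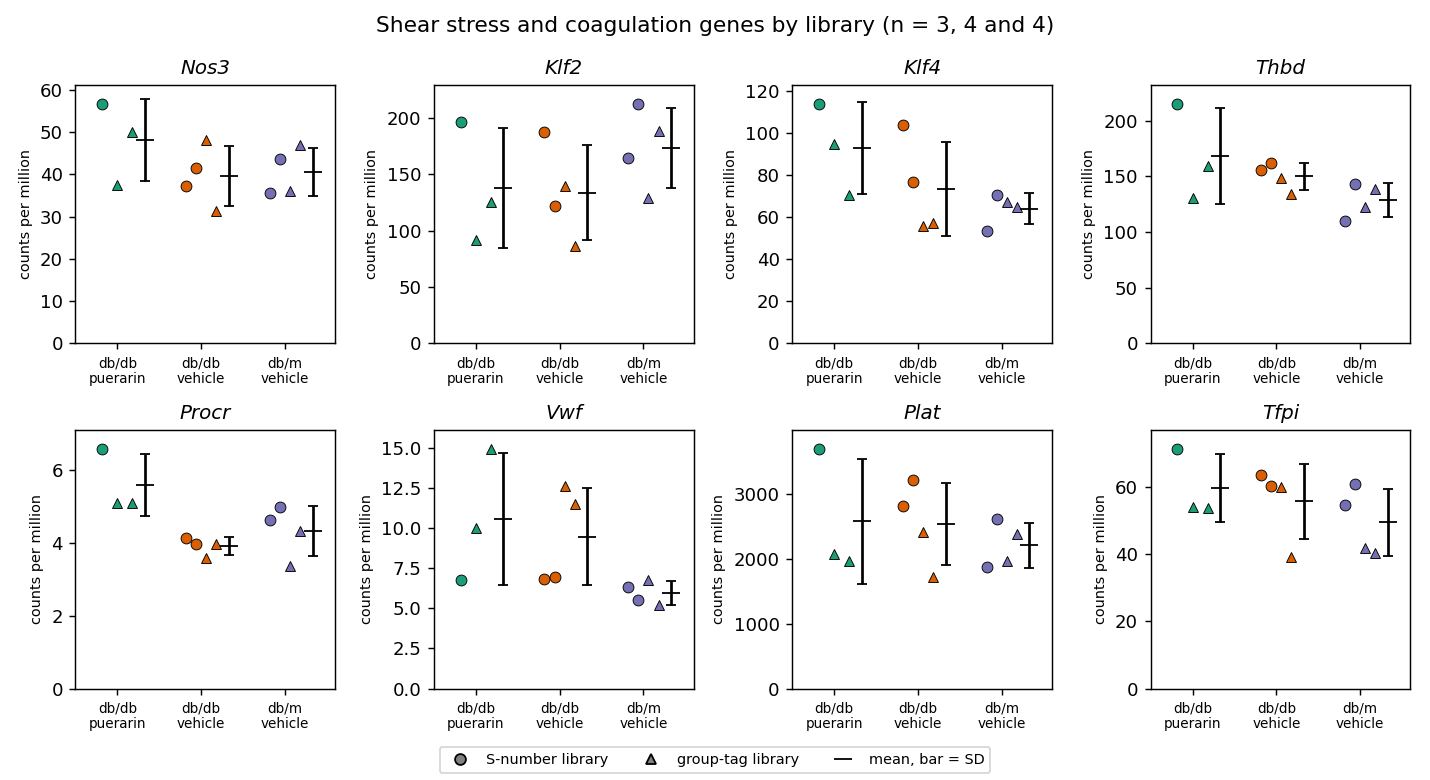
CPM of each gene in every library, with puerarin at the left, db/db vehicle in the middle and db/m vehicle at the right of each panel. Circles are S-number and triangles group-tag libraries, and the bar beside each group is mean ± SD. Puerarin libraries lie above all db/db vehicle libraries for Procr, and db/db vehicle libraries lie above all db/m libraries for Vwf.

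The anticoagulant surface genes included the one gene whose puerarin libraries stood clear of both vehicle groups. Procr, the endothelial receptor that hands protein C to the thrombin and thrombomodulin complex (chromosome 2, 155751217 to 155755478, plus strand), had 6.57, 5.10 and 5.09 CPM in puerarin S144, 2 and 3. It had 4.14, 3.97, 3.58 and 3.97 CPM in db/db vehicle S152, S153, 1 and 3, and 4.62, 4.99, 3.36 and 4.33 CPM in db/m vehicle S184, S185, 2 and 3. The lowest puerarin library exceeded the highest db/db vehicle library, and it exceeded the highest db/m vehicle library by a small margin. Groups failed to overlap for 1 of 8 genes in puerarin over db/db vehicle, beside 3.23% of all genes, and for 1 of 8 in puerarin over db/m vehicle, beside 7.65%. The fold change over db/db vehicle was 1.46 (log2 0.55, SE 0.14, 95% interval 0.24 to 0.86), with an unadjusted p of 0.00286, rank 26 among all genes, and an edgeR adjusted p of 0.967. It was 0.43 within group-tag and 0.69 within S-number libraries, 0.66 without puerarin 2 and 3, and 0.49 to 0.62 with any single library left out. The S-number value and the value without puerarin 2 and 3 both rest on puerarin S144 alone. With the endothelial marker level as a covariate the log2 fold change was 0.53 (edgeR adjusted p = 0.772). Procr is a low message, with 136 to 286 reads in a library.

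Thbd, encoding thrombomodulin (chromosome 2, 148404471 to 148408188, minus strand), had 215, 131 and 159 CPM in puerarin S144, 2 and 3. It had 156, 162, 149 and 134 CPM in db/db vehicle S152, S153, 1 and 3, and 110, 143, 123 and 139 CPM in db/m vehicle S184, S185, 2 and 3. The db/db vehicle libraries sat mostly above the db/m vehicle libraries and overlapped at their lowest value, while puerarin S144 stood alone at the top. The log2 fold changes were 0.22 (SE 0.13, 95% interval -0.08 to 0.51, edgeR adjusted p = 0.627) for db/db vehicle over db/m vehicle and 0.40 (SE 0.14, edgeR adjusted p = 0.352) for puerarin over db/m vehicle. The puerarin over db/m vehicle value was 0.20 without puerarin S144 and 0.72 without puerarin 2 and 3. Puerarin over db/db vehicle gave 0.18, which was -0.02 without puerarin S144 and 0.50 without puerarin 2 and 3.

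Tfpi, the inhibitor of tissue factor (chromosome 2, 84432860 to 84476775 over its transcripts, minus strand), was the sum of 3 transcripts. The longer 2 had identical counts in every library, so their shared reads enter the sum more than once. The sum came to 71.1, 53.9 and 53.7 CPM in puerarin S144, 2 and 3, to 63.5, 60.1, 59.9 and 39.2 CPM in db/db vehicle S152, S153, 1 and 3, and to 54.4, 60.8, 41.9 and 40.3 CPM in db/m vehicle S184, S185, 2 and 3. Low values sat in group-tag libraries: the db/m vehicle pair 2 and 3 and db/db vehicle 3 were near 40 CPM, and every S-number library was above 54 CPM. The log2 fold change of puerarin over db/m vehicle was 0.35 (SE 0.13, 95% interval 0.06 to 0.63, edgeR adjusted p = 0.381), and 0.36 without puerarin 2 and 3.

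The shorter Tfpi transcript, from the downstream start site shown above, was counted separately from the longer ones, which allowed their ratio to be read within each library. It was examined after the counts were seen. The ratio of shorter to longer was 0.571, 0.459 and 0.518 in puerarin S144, 2 and 3, then 0.600, 0.569, 0.579 and 0.638 in db/db vehicle S152, S153, 1 and 3, and 0.604, 0.658, 0.668 and 0.647 in db/m vehicle S184, S185, 2 and 3. All 3 puerarin libraries lay below all 4 db/m vehicle libraries, puerarin S144 lay just inside the db/db vehicle range, and db/db vehicle overlapped db/m vehicle. Exact two-sided permutation tests gave p = 0.0571 for puerarin against db/m vehicle, which is the smallest this design allows, 0.114 for puerarin against db/db vehicle and 0.0571 for db/db vehicle against db/m vehicle. Adjusted over these 3 tests the values were 0.0857, 0.114 and 0.0857. Both of the lowest ratios came from the libraries whose Xist level goes against their label. Without them puerarin S144 alone remained, below the db/m vehicle range and inside the db/db vehicle range, and 1 library allows no such test. The transcripts end at different positions as well as starting apart, so reads over either end enter the ratio. Reads shared by the transcripts may count in both parts of it, so the ratio is not a clean measure of start site use.

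**Figure D4:**
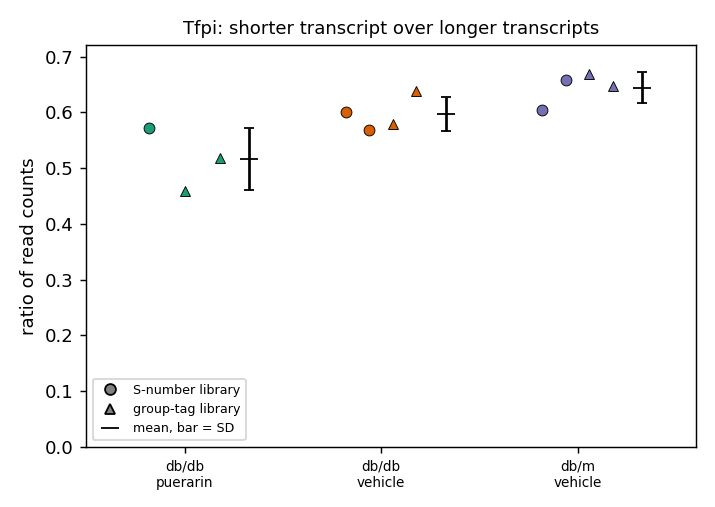
Ratio of read counts of the shorter to the longer Tfpi transcripts in every library, with puerarin at the left, db/db vehicle in the middle and db/m vehicle at the right. Circles are S-number and triangles group-tag libraries, and bars are mean ± SD. Puerarin libraries (0.459 to 0.571) lie below the db/m vehicle libraries (0.604 to 0.668).

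Among other coagulation genes, 23 of 34 were measured and 0 passed in a group comparison with edgeR. The leading gene for db/db vehicle over db/m vehicle was F2r, the thrombin receptor, at 0.52 (SE 0.14, edgeR adjusted p = 0.215), and for puerarin over db/m vehicle it stood at 0.59 (SE 0.15, edgeR adjusted p = 0.18). Entpd1, an enzyme that removes the platelet agonist ADP, was next at 0.57 (SE 0.18, edgeR adjusted p = 0.288) and 0.74 (SE 0.19, edgeR adjusted p = 0.181) in the same comparisons. Puerarin over db/db vehicle was led by F11 at -0.45 (SE 0.17, edgeR adjusted p = 0.967). Without puerarin 2 and 3, F11 was at -0.23 there, and for puerarin over db/m vehicle F2r was at 0.65 and Entpd1 at 1.21. The list's medians, 0.08, -0.08 and -0.04 for the 3 comparisons, lay near those of all genes.

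Vwf, whose product tethers platelets to the injured wall (chromosome 6, 125552948 to 125686679, plus strand), was the gene with the widest gap between genotypes. It had 6.73, 9.97 and 14.9 CPM in puerarin S144, 2 and 3, then 6.82, 6.92, 12.6 and 11.5 CPM in db/db vehicle S152, S153, 1 and 3, and 6.35, 5.49, 6.79 and 5.22 CPM in db/m vehicle S184, S185, 2 and 3. Every db/db vehicle library was above every db/m vehicle library, though S152 exceeded db/m vehicle 2 by a margin of a few hundredths, and puerarin S144 lay inside the db/m range. Groups failed to overlap for 1 of 8 genes in this comparison, beside 4.96% of all genes. The fold change of db/db vehicle over db/m vehicle was 1.52 (log2 0.60, SE 0.21, 95% interval 0.14 to 1.06), with an unadjusted p of 0.0153 and an edgeR adjusted p of 0.348. Puerarin over db/m vehicle gave 0.67 (SE 0.22, edgeR adjusted p = 0.321), and puerarin over db/db vehicle gave 0.07 (SE 0.22, edgeR adjusted p = 0.992). Without puerarin 2 and 3 these became 0.39 and -0.22.

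Most of that Vwf difference sat in the group-tag libraries. The db/db vehicle over db/m vehicle difference was 1.01 in group-tag and 0.22 in S-number libraries, and that of puerarin over db/m vehicle was 1.03 and 0.19. The test of genotype against title form gave 0.79 for Vwf on the log2 scale (SE 0.33, unadjusted p = 0.0395, edgeR adjusted p = 1). In db/m vehicle libraries the forms differed by 0.01, and in both db/db groups group-tag libraries were higher, by 0.85 with puerarin and 0.81 with vehicle. Under puerarin the forms are S144 against puerarin 2 and 3, whose Xist level goes against the label. Form and Xist level cannot be told apart there. Platelets and megakaryocytes also hold von Willebrand factor. Of 11 platelet markers 4 were measured. Pf4, a defining platelet gene, was at 1.53 to 2.08 CPM in puerarin, 2.09 to 3.28 CPM in db/db vehicle and 1.52 to 2.94 CPM in db/m libraries, and Ppbp was not among the measured genes. Some smooth muscle genes were also higher in group-tag libraries, with Acta2 at 142 to 309 CPM against 48.1 to 81.8 CPM in S-number libraries. Of 13 mesangial and smooth muscle markers, 7 were higher and 6 lower in group-tag libraries. The part of these cells in the Vwf values was not tested.

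For Weibel-Palade bodies, the storage granules that hold von Willebrand factor, 22 of 29 listed genes were measured. A place on the list, Sele included, does not mean that the product is stored in the granules. For puerarin over db/m vehicle 1 rose and 0 fell, where 0.182% of all genes passed. It was Sele, the leukocyte adhesion receptor E-selectin, at log2 1.51 (SE 0.24, edgeR adjusted p = 0.0455). The call was kept in 2 of 11 cases with 1 library left out. Sele had 11.9, 16.1 and 8.83 CPM in puerarin S144, 2 and 3, against 5.64, 6.03, 3.16 and 4.20 CPM in db/m vehicle S184, S185, 2 and 3. No puerarin library overlapped the db/m range. The next, Edn1, encoding the vasoconstrictor endothelin-1, was at 0.70 (SE 0.15, edgeR adjusted p = 0.121), or 0.94 without puerarin 2 and 3. For db/db vehicle over db/m vehicle 0 passed, with Mlph at 0.77 (SE 0.16, edgeR adjusted p = 0.133) and Sele at 0.97 (SE 0.22, edgeR adjusted p = 0.149).

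Plat, encoding tissue plasminogen activator (chromosome 8, 22757722 to 22782848, plus strand), had 3690, 2070 and 1970 CPM in puerarin S144, 2 and 3. It had 2820, 3210, 2410 and 1720 CPM in db/db vehicle S152, S153, 1 and 3, and 1870, 2610, 1970 and 2380 CPM in db/m vehicle S184, S185, 2 and 3. Puerarin S144 was highest and the other puerarin pair sat at the lower end, so the groups overlapped widely. The log2 fold changes were 0.16 (SE 0.18, 95% interval -0.24 to 0.56, edgeR adjusted p = 0.805) for db/db vehicle over db/m vehicle and 0.07 (SE 0.20, 95% interval -0.36 to 0.51, edgeR adjusted p = 0.988) for puerarin over db/db vehicle. The puerarin value became -0.16 without puerarin S144 and 0.43 without puerarin 2 and 3.

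Other fibrinolysis genes gave 15 measured of 21 and 0 calls in a group comparison. Serpine2, encoding a thrombin and plasminogen activator inhibitor, had the smallest p for db/db vehicle over db/m vehicle at 0.88 (SE 0.18, edgeR adjusted p = 0.135), with 0.77 in group-tag and 0.99 in S-number libraries. Pdgfc, a growth factor that plasmin and tissue plasminogen activator can cleave, stood at -0.55 (SE 0.16, edgeR adjusted p = 0.269) there and at -0.91 (SE 0.18, edgeR adjusted p = 0.103) for puerarin over db/m vehicle. Puerarin over db/db vehicle was led by Serpinf2, the plasmin inhibitor, at -1.09 (SE 0.36, edgeR adjusted p = 0.967). That value was -1.14 without puerarin 2 and 3, and Pdgfc was at -1.29 for puerarin over db/m vehicle. The list's medians were 0.15, -0.02 and 0.09 in the 3 comparisons.

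Flow-regulated genes outside the 8 did include calls. Of 32 measured, 3 rose and 0 fell in puerarin over db/m vehicle, where 0.182% of all genes passed. They were the vasodilator peptide gene Adm at log2 1.85 (SE 0.22, edgeR adjusted p = 0.042), Sele as above, and the lipid carrier gene Fabp4 at 1.26 (edgeR adjusted p = 0.0455). The list was chosen with earlier results of these data known, so these calls are not an independent result. Adm had 93.2, 95.5 and 96.2 CPM in puerarin S144, 2 and 3, against 22.8, 28.0, 28.0 and 27.9 CPM in db/m vehicle S184, S185, 2 and 3, with no overlap. The list's median log2 fold change was 0.32, beside -0.01 over all genes. The list was not sorted by the direction in which flow moves each gene, so this median does not measure a flow response. In puerarin over db/db vehicle 0 of the 32 passed, led by Adm at 0.75 (SE 0.22, edgeR adjusted p = 0.967), or 0.61 without puerarin 2 and 3. In db/db vehicle over db/m vehicle 0 passed, led by Adm at 1.10 (SE 0.20, edgeR adjusted p = 0.0963). The calls were close to the threshold and depended on single libraries. With any 1 library left out, Adm stayed at 1.76 to 1.94, Sele at 1.15 to 1.77 and Fabp4 at 1.02 to 1.46, but each passed in only 2 of 11 cases, without db/db vehicle 1 or without db/db vehicle 3. Over the 11 cases the edgeR adjusted p ran up to 0.121 for Adm, 0.131 for Sele and 0.179 for Fabp4. Not one gene of all those tested passed in puerarin over db/m vehicle without db/db vehicle S152 or S153, db/m vehicle S184, S185 or 3, or puerarin 2, and the same held without puerarin 2 and 3 together. In that last fit Adm was at 1.70, Sele at 1.03 and Fabp4 at 1.64.

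The endothelial markers gave the scale for these values. Of 24, all were measured, and 1 rose in puerarin over db/m vehicle, where 0.182% of all genes passed. It was Gpihbp1, which anchors lipoprotein lipase, at log2 1.35 (SE 0.20, edgeR adjusted p = 0.0451), a call kept in 2 of 11 cases with 1 library left out. The median of the 24 was -0.01 in that comparison, -0.08 in db/db vehicle over db/m vehicle and 0.14 in puerarin over db/db vehicle. Their summed level was 8620 to 12400 CPM in puerarin, 6410 to 10800 CPM in vehicle-treated db/db, and 7810 to 12300 CPM in db/m libraries. Of 8 arterial markers, 1 rose in puerarin over db/m vehicle, Fbln5, an elastic fibre protein, at 0.71 (SE 0.11, edgeR adjusted p = 0.0454), also kept in 2 of 11. Without puerarin 2 and 3, Gpihbp1 was at 1.19 and Fbln5 at 0.73, and neither passed. The arterial gene Gja5 ran from 120 to 357 CPM over the 11 libraries. Of 5 measured lymphatic markers 0 passed, and Prox1 and Lyve1 stayed at or under 4.43 CPM in all libraries.

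Library by library, several of the 8 genes were at their highest or lowest where the endothelial level was. Puerarin S144 had the highest value of 6 of the 8 genes (Nos3, Klf4, Thbd, Procr, Plat and Tfpi) and the highest endothelial level of any library, 0.39 on the log2 scale about the mean. It also had the lowest level of the loop to collecting duct markers, -1.92. At the other end, db/db vehicle 3 had the lowest value of 4 genes (Nos3, Klf2, Plat and Tfpi), the lowest endothelial level, -0.54, and the highest loop to collecting duct level, 1.13. Klf4 and Thbd were lowest in db/m vehicle S184 and Procr in db/m vehicle 2. Vwf was highest in puerarin 3, and in db/db vehicle 3 it was above every db/m vehicle library. The part of cell content in these values was not tested beyond the fit with the endothelial level as a covariate, in which 0 of 8 passed in each group comparison.

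**Figure D5:**
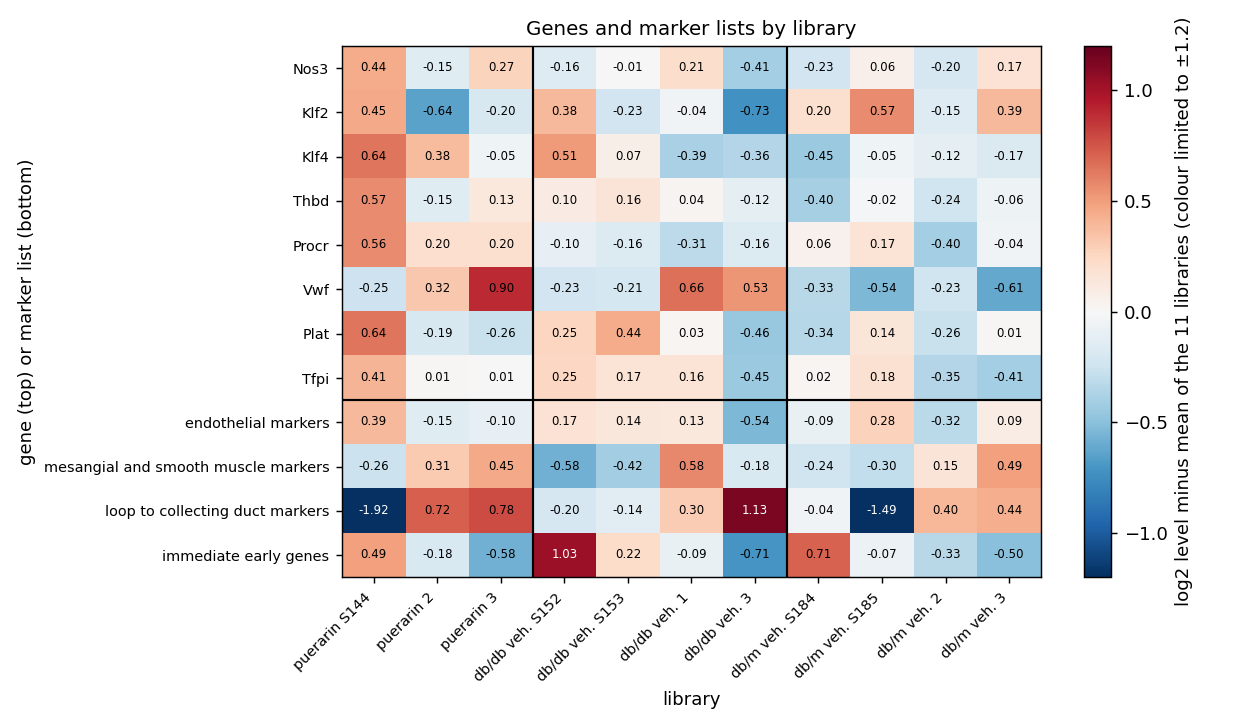
Log2 level of each gene (top 8 rows) and of marker lists (bottom 4 rows) minus its mean over the 11 libraries, with puerarin libraries at the left, db/db vehicle in the middle and db/m vehicle at the right. Puerarin S144 is above the mean for 7 genes, all but Vwf, and for the endothelial markers, and db/db vehicle 3 is below it for the same 7 genes and the endothelial markers.

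The other marker lists held 0 calls in the 3 group comparisons. Summed myeloid markers (15 measured) were 187 to 279 CPM in puerarin, 214 to 1010 CPM in vehicle-treated db/db, and 120 to 299 CPM in db/m libraries, the top value coming from db/db vehicle 1. Its defining Cd68 and Csf1r reached 36.7 and 69.9 CPM in db/db vehicle, against maxima of 3.98 and 19.0 CPM in db/m vehicle. Proximal tubule markers summed to 1440 to 2050 CPM in puerarin, 798 to 4200 CPM in vehicle-treated db/db, and 1140 to 6240 CPM in db/m libraries. The mesangial and smooth muscle list summed to 1890 to 2440, 1500 to 2610 and 1830 to 2360 CPM in the same groups, and the podocyte list to 15200 to 20000, 13900 to 18100 and 16400 to 20000 CPM.

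Between the title forms 1 of the 8 genes passed, beside 6.97% of all genes. Tfpi was lower in group-tag libraries, at 48.1 ± 8.75 CPM (SD, n = 6), against 62.0 ± 6.09 CPM in S-number libraries (SD, n = 5), a log2 difference of -0.40 (SE 0.10, edgeR adjusted p = 0.0457). It was lower in group-tag libraries in all 3 groups, with log2 differences of -0.40 under puerarin, -0.35 in vehicle-treated db/db and -0.48 in db/m mice. Under puerarin the forms are S144 against puerarin 2 and 3, so form and Xist level cannot be told apart. The call was kept in 5 of 20 other settings, and in 2 of 11 that left out a library. Plat averaged 2090 ± 265 CPM in group-tag and 2840 ± 679 CPM in S-number libraries (log2 -0.44, edgeR adjusted p = 0.111), and Klf2 126 ± 36.6 against 176 ± 34.8 CPM (log2 -0.48, edgeR adjusted p = 0.138). Vwf stood the other way, at 10.2 ± 3.63 CPM in group-tag and 6.46 ± 0.584 CPM in S-number libraries (log2 0.54, edgeR adjusted p = 0.101). Of the 24 endothelial markers, 1 fell in group-tag libraries (Eng, log2 -0.47, edgeR adjusted p = 0.0468), and their median was -0.31. Of 16 immediate early genes 9 fell, led by Jun at -0.76 (edgeR adjusted p = 0.0256), and of 12 loop to collecting duct markers 6 rose. Of 13 mesangial and smooth muscle markers 5 rose, led by Acta2 at 1.74, although 6 of the 13 had estimates below 0. Without puerarin 2 and 3 these lists kept 0, 0, 0 and 4 calls, in that order. The part of these lists in the Tfpi value was not tested, though with the endothelial level as a covariate it was -0.23 (edgeR adjusted p = 0.296). Other gene lists also held title form calls. Higher in group-tag libraries were Rab15 and Rab27a (of 22 Weibel-Palade genes), Ptgs1 and Ptgis (of 32 flow-regulated genes) and F2rl1 (of 23 coagulation genes). Lower were the coagulation gene Mcfd2 and, of 15 fibrinolysis genes, Serpine2.

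The genes whose pattern over the 11 libraries was most like each of the 8 were found by Pearson correlation of log2 CPM, with the mean of each title form subtracted, among 9940 genes averaging at least 10 CPM. Nos3 was nearest to Pde2a (r = 0.98) and Lbh (r = 0.969). Klf2 was nearest to Chst8 (r = 0.964) and Ccrl2 (r = 0.934), and Klf4 to Mycl (r = 0.975) and Dusp8 (r = 0.909). Thbd was nearest to Bcl6 (r = 0.961) and Camk1 (r = 0.945), and Plat to Fkbp1a (r = 0.966) and Sema7a (r = 0.957). Tfpi was nearest to Cd93 (r = 0.945) and Flna (r = 0.929). Procr and Vwf, both low messages, had weaker neighbours: Rflnb (r = 0.847) and Vamp5 (r = 0.842) for Procr, and Wdyhv1 and Fam129a (both r = 0.896) for Vwf. These are the highest of 9940 correlations per gene, over 11 libraries that share group and cell content, and are given as a description.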

How the data were processed

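Glomeruli were isolated and RNA with an integrity value above 7.5 was sequenced, per the labels' protocols, which mention 2 sequencing sites but not which libraries each handled. The submitters' processing notes name BWA, limma and mm10. For read assignment and strand, settings are not given in the sources used here. As deposited, the counts are whole reads per RefSeq transcript for 22320 transcripts. Of 15 count columns, 4 matched no sample and were not used. Blank cells (13) were set to 0, and 50 symbols turned into dates were restored from transcript identifiers. Summing per symbol gave 13734 genes, and reads shared by transcripts count more than once. For level per length the highest transcript was used.

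The main test was edgeR 4.0.16 in R 4.3.3 (glmQLFit, glmQLFTest, TMM factors) on all 11 libraries with group and title form as terms. A count of at least 1 in 3 libraries was required, which all genes met. P-values were two-sided and Benjamini-Hochberg adjusted, with a threshold of 0.05. CPM uses TMM factors, and log2 CPM a prior count of 2. Deposited starts count from 0 and are given from 1. The fit had 7 residual degrees of freedom. The code was tested on simulated data. Alternatives used DESeq2 1.42.0, limma 3.58.1, other scalings, filters, covariates and left-out libraries. The 8 genes and the gene lists were chosen with earlier results of these data known. For each list and comparison, the genes to name were those past the threshold and, below 2 of these, those with the smallest p up to 2. Not all of them are printed, and of the title form calls in marker lists only some are named. Exact tests used SciPy 1.17.1. No libraries of a group agreed within sampling noise. The summed level of the platelet markers is not reported here.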

Additional observations from a re-analysis of the deposited data

Results flagged for a closer look

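One value stood apart from the rest of its group. Tfpi in db/db vehicle 3 was at 39.2 CPM, whereas the other 3 db/db vehicle libraries were at 59.9 to 63.5 CPM. A gap this wide for its range arises by chance in about 1 of 20 groups, and 16 groups of 4 libraries were looked at. The same library had the lowest endothelial level, -0.54 on the log2 scale, and the highest loop to collecting duct level, 1.13. Without it the db/db vehicle over db/m vehicle log2 fold change of Tfpi was 0.28, against 0.19 with it. The part of cell content in this value was not tested.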

How the results depend on the processing

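Each comparison was repeated under 23 settings (20 for title form), and 0 of 8 genes passed in every one of them for the 3 group comparisons. Over the same settings the count of all genes called ran from 0 to 290 for db/db vehicle over db/m vehicle (6 in edgeR with TMM), from 0 to 15 for puerarin over db/db vehicle (0), from 0 to 297 for puerarin over db/m vehicle (25) and from 4 to 1885 for title form (957). DESeq2 gave the highest of each. The single title form call (Tfpi) became 0 calls with upper-quartile factors, total counts, the endothelial covariate, the immediate early covariate, the highest transcript of each gene, or without puerarin 2 and 3. It became 2 with DESeq2 (Vwf and Tfpi), and ran from 0 to 3 when 1 library was left out, the 3 (Vwf, Plat and Tfpi) coming without db/m vehicle S184. Cause was not tested. The genotype by title form test kept 0 of 8 in 12 settings chosen after seeing the data.

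A replicate block over the title numbers called 56, 0 and 49 genes and 0 of the 8 in the group comparisons. The Vwf value became 0.47 and the Klf2 value -0.60 for db/db vehicle over db/m vehicle. Number 1 occurs in db/db vehicle 1 alone, so its block term takes up that library, which then adds nothing to these values. The labels do not say that the numbers pair animals. Deviations of same-numbered libraries correlated at 0.23 and 0.44 (puerarin and db/m vehicle 2 and 3), 0.64 (puerarin 3 and db/db vehicle 3) and 0.27 (db/db vehicle 3 and db/m vehicle 3), and those of differently numbered puerarin and db/m vehicle libraries at 0.27 and 0.27. They are deviations from means over both title forms, so a difference between forms enters every one of them, and no 2 groups share more than 2 numbers. Depth limits Procr and Vwf most, as the lowest counts.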
